A study of Homo sapiens with 32 samples.

Results

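The genes described here handle iron in the intestinal epithelium: CYBRD1, SLC11A2, SLC40A1, HEPH, TFRC, FTH1, FTL, IREB2, ACO1 and NCOA4. These 10 genes were chosen by name for their known roles in iron handling, out of 60107 rows of the count table. All 10 passed the filter on low counts, also when the HIF1A-null libraries were left out of the filter, and so belong to the 12849 genes tested.

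RNA was sequenced from Caco-2 cells, a human colon carcinoma line used as a model of intestinal epithelium. HIF1A-null cells are 1 clone (cl.21) that carries an inducible Cas9 and a guide against HIF1A, control cells carry the same Cas9 with an empty vector (e.v.), and WT cells carry neither. Each of the 3 lines was grown in HoxBan coculture, in HoxBan monoculture and in 2D well culture. The groups had 3 libraries each, with 4 for WT cells in 2D, 28 libraries in all. A further 4 single WT libraries came from HoxBan with inulin or mucin, alone or with stool bacteria. In HoxBan, short for "Human oxygen-Bacteria anaerobic", a coverslip with cells lies face down on anaerobic agar under medium that oxygen reaches from above, and in coculture the agar holds Faecalibacterium prausnitzii, a butyrate-producing gut bacterium. HoxBan and 2D differ in vessel, medium, agar and oxygen supply, which cannot be told apart here. The HIF1A edit and other traits of the clone cannot be told apart either.

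Dietary iron enters an enterocyte after CYBRD1, the brush border ferric reductase, has reduced it and SLC11A2, also called DMT1, has carried it across the apical membrane. Iron leaves the cell through SLC40A1, the exporter ferroportin, and HEPH, the ferroxidase hephaestin, oxidises it for transfer to transferrin. TFRC, the transferrin receptor, brings iron in from the blood side. FTH1 and FTL are the chains of ferritin, the iron store, and NCOA4 delivers ferritin to the lysosome for breakdown. IREB2 and ACO1 encode the iron regulatory proteins IRP2 and IRP1, which bind hairpins called iron-responsive elements when iron is scarce. In the gut, HIF2, the hypoxia-inducible factor whose oxygen-regulated chain is EPAS1, is known to activate CYBRD1, SLC11A2 and SLC40A1.

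An iron-responsive element in the 5′ UTR lets the IRPs block translation, and one in the 3′ UTR lets them protect the RNA from decay. Elements found by a search of the members are shown here. Transcripts of the GENCODE release 29 annotation of GRCh38 were searched for a bulged C, a stem of 5 pairs and a loop CAGTGN, where N is A, C or T. Such an element was found in 405 of 58676 genes (0.69%) and in 4 of the 10 members, 1 each in SLC40A1, FTH1 and FTL and 4 in TFRC. Only this shape was sought, so an element with a different stem or loop would be missed. A member without a match, such as SLC11A2, may therefore still carry one. The loop is in capitals. The ferritin elements lie in the 5′ UTR at chr11:61967574-61967602 on the minus strand (FTH1) and chr19:48965335-48965363 on the plus strand (FTL), and the SLC40A1 element lies in the 5′ UTR of 1 of the 3 annotated transcripts that hold it, at chr2:189580661-189580689 on the minus strand. Of the TFRC elements, all in the 3′ UTR on the minus strand, the pair at chr3:196050463-196050491 and chr3:196050979-196051007 is shown.
FTH1: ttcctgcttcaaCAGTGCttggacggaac
FTL: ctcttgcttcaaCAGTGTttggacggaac
SLC40A1: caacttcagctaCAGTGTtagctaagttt
TFRC, at 196050463: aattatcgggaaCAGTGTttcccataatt
TFRC, at 196050979: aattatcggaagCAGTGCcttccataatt

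HIF proteins bind the core ACGTG or GCGTG. In RefSeq windows on GRCh38.p14 that run from 250 bases before to 50 bases after a gene start, this core stood on either strand in 17012 of 35116 windows (48.4%). It stood in 8 of 17 windows of the members (47.1%), which hold at least 1 match for 6 of the 9 members with a window. The CYBRD1 match begins 147 bases before the start, in chr2:171522315-171522343 on the plus strand, and the TFRC match 88 bases before the start, in chr3:196082162-196082190 on the minus strand. They are shown with the core in capitals, CYBRD1 for its difference between lines and TFRC as 1 of the members in which both kinds of sequence were found. FTL also has both, with 3 matches of the core in its window.
CYBRD1: ccctcggcggccGCGTGatcccgggggtg
TFRC: cctcgcgagcgtACGTGcctcaggaagtg

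The 28 libraries held 4144373 to 6686797 counts (median 4917010). Replicates carry the library numbers of the labels. Whether they are separate cultures is not stated, so a p-value measures only the spread between these libraries. Mitochondrial genes took 4.49 to 23.6% of the counts of a library. By group, this share averaged 15.0 to 16.3% in coculture, 11.1 to 15.2% in monoculture and 7.60 to 9.47% in 2D, so it moved with culture. Of 16 epithelial markers 13 averaged at least 1 CPM and together they held 3416 to 7504 CPM, while CDX1, LGALS4 and GPA33 averaged less. The 6 immune markers summed to 5.18 to 43.9 CPM, most of it LYZ, with MS4A1 at 0. Fibroblast markers summed to 18.4 to 57.1 CPM, mostly COL1A1 (mean 28.1 CPM), and endothelial markers to 1.84 to 6.32 CPM, nearly all of it PECAM1. Of the 5 erythroid markers, 3 were at 0 in all 28 libraries, HBB and ALAS2 among them, and HBA1 averaged 1.26 CPM, with summed levels of 0.271 to 3.44 CPM. HIF1A itself averaged 88.3 ± 3.63 CPM in HIF1A-null 2D libraries and 163 ± 18.3 CPM in control 2D libraries (SD, n = 3 each). The difference there was -0.89 on the log2 scale (edgeR adjusted p = 0.00972). Its difference did not pass in monoculture (-0.55, adjusted p = 0.194) or coculture (-0.68, adjusted p = 0.0696). QuantSeq reads the 3′ end of a transcript and not the edited sequence, so these counts do not check the edit.

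Levels are CPM, counts per 1000000 after TMM scaling. Since QuantSeq reads come from transcript ends, CPM were not divided by transcript length and are compared between genes as they are. Mean levels over the 28 libraries ranged from 1575 CPM for FTL to 4.47 CPM for CYBRD1. Between them, TFRC averaged 427 CPM and FTH1 400.4 CPM, IREB2 216, SLC11A2 183, NCOA4 179.6 and SLC40A1 173 CPM, ACO1 56.5 and HEPH 37.2 CPM. CYBRD1 had the widest spread of its 9 group means, 2.25 on the log2 scale, against 0.49 to 1.12 for the other members. Rows of the processed pseudogenes of FTH1, which could share its reads, held 111 counts in 32 libraries, 0.174% of the gene's own, and those of FTL held 874 counts, 0.34%. Annotated genes that overlap a member held at most 31 counts in all.

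HIF1A-null cells were set against control cells to ask what the loss of HIF1α does, and against WT cells as a further reference. CYBRD1, the ferric reductase, was the member that rose in HIF1A-null cells, in each of the 3 cultures and against both references, by 3.10- to 4.52-fold. The other members of the apical and basolateral route, SLC11A2, SLC40A1 and HEPH, did not pass the test in any culture. ACO1 rose in HIF1A-null cells against WT cells in 2D only, where the test was close to its threshold.

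In 2D, CYBRD1 stood at 10.2, 9.08 and 9.41 CPM in the HIF1A-null libraries, against 2.16, 2.55 and 4.12 CPM in the control libraries and 2.55, 3.06, 2.55 and 2.67 CPM in the WT libraries. The monoculture values were 7.84, 8.61 and 5.69 CPM for HIF1A-null, against 2.78, 1.84 and 1.38 CPM for control and 1.66, 1.39 and 1.80 CPM for WT cells. The coculture values were 7.85, 8.17 and 11.1 CPM for HIF1A-null, against 2.25, 3.81 and 2.02 CPM for control and 4.45, 1.81 and 2.29 CPM for WT cells. The lowest HIF1A-null library of any culture, at 5.69 CPM, stood above the highest of the other 19, a WT coculture library at 4.45 CPM. These are low counts, 29 to 70 reads in a HIF1A-null library and 6 to 24 in a control or WT library.

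Against control cells the log2 fold change of CYBRD1 was 1.68 ± 0.29 in 2D (SE, edgeR adjusted p = 0.00172), 1.85 ± 0.33 in monoculture (adjusted p = 0.00278) and 1.74 ± 0.32 in coculture (adjusted p = 0.00404). Against WT cells it was 1.77 ± 0.27 in 2D (adjusted p = 0.000393), 2.18 ± 0.33 in monoculture (adjusted p = 0.000734) and 1.63 ± 0.31 in coculture (adjusted p = 0.00739). The 6 comparisons share the HIF1A-null libraries of a culture, so those against control and against WT cells are not independent. Against control cells, 1 of 10 members passed in each culture, where 1.0% of all genes passed in 2D, 1.12% in monoculture and 1.17% in coculture. Against WT cells, 2 members passed in 2D (1.46% of all genes), 1 in monoculture (2.28%) and 1 in coculture (0.926%). Among the genes higher in HIF1A-null than in control cells, 24 of 70 in monoculture, 25 of 65 in coculture and 32 of 69 in 2D had a larger fold than CYBRD1. With only the compared groups in the fit, CYBRD1 no longer passed against control cells in monoculture (1.86, adjusted p = 0.103) or against WT cells in coculture (1.64, adjusted p = 0.147), and that against WT cells was also lost without WT coculture replicate 28 (1.49, adjusted p = 0.0541).

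In order of its group means, CYBRD1 stood at 9.57 ± 0.58 CPM in HIF1A-null cells in 2D, 9.05 ± 1.80 in HIF1A-null coculture and 7.38 ± 1.51 in HIF1A-null monoculture (SD, n = 3 each). The other 6 groups followed at 2.95 ± 1.04 in control 2D, 2.85 ± 1.41 in WT coculture, 2.71 ± 0.24 in WT 2D, 2.70 ± 0.97 in control coculture, 2.00 ± 0.71 in control monoculture and 1.62 ± 0.21 CPM in WT monoculture. Neighbours in this order differed by less than the larger SD of the pair, except at the step between HIF1A-null monoculture and control 2D.

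ACO1, the RNA of IRP1, stood in 2D at 66.2, 68.5 and 70.7 CPM in the HIF1A-null libraries, against 50.5, 52.1 and 53.3 CPM in the control libraries and 49.7, 53.8, 43.1 and 48.2 CPM in the WT libraries. The HIF1A-null libraries were above those of both other lines with no overlap, and this also held in monoculture and in coculture. Lack of overlap was common among the 10 members. It was seen for 6 in 2D, 3 in monoculture and 5 in coculture against control cells, and for 3, 3 and 2 against WT cells. The share of all genes without overlap is not given here. The log2 fold change against WT cells in 2D was 0.46 ± 0.12 (SE, edgeR adjusted p = 0.0485), and the call was lost whichever of the 7 libraries was left out (0.41 to 0.49, adjusted p 0.0519 to 0.188). The other 5 comparisons of ACO1 gave 0.22 to 0.48 and did not pass (adjusted p 0.0715 to 0.611).

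Among the remaining regulators and stores, no member passed between HIF1A-null and control or WT cells. IREB2, the RNA of IRP2, gave 0.26 to 0.43 against control cells and -0.19 to -0.03 against WT cells. FTH1 gave 0.07 to 0.36 against control cells and -0.12 to 0.12 against WT cells, and FTL -0.08 to 0.11 over the 6 comparisons. TFRC was negative in all 6, from -0.50 to -0.12, with adjusted p of 0.176 to 0.944. NCOA4 gave -0.44 to -0.14 against control cells, and -0.34 in 2D, 0.24 in monoculture and 0.06 in coculture against WT cells. Its coculture values were 204, 181 and 155 CPM in HIF1A-null cells, against 212, 268 and 255 CPM in control cells, with no overlap and an adjusted p of 0.316.

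**Figure D1:**
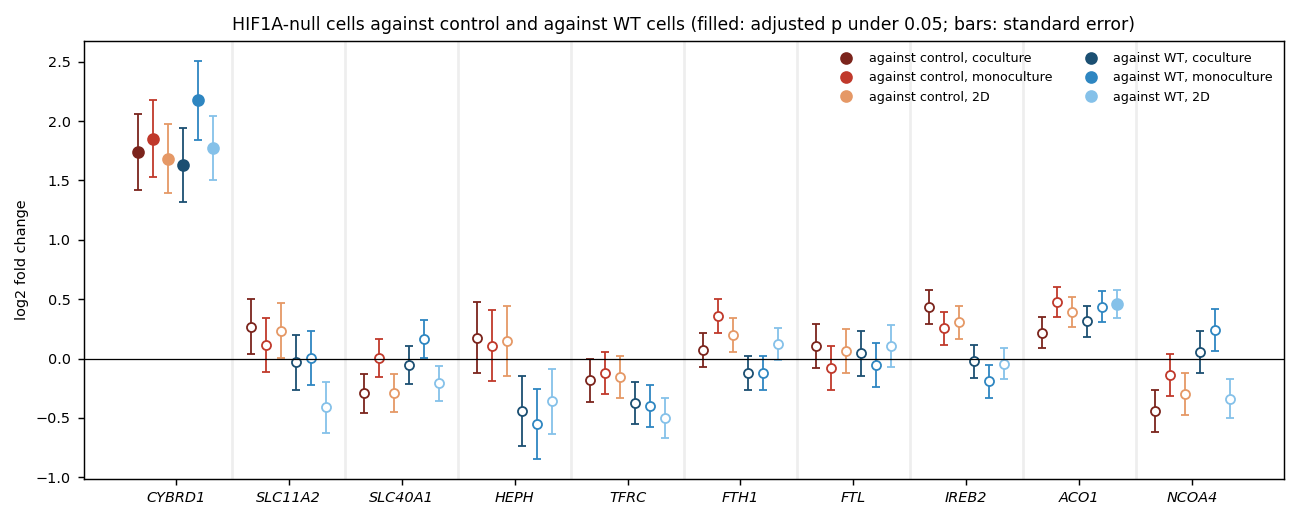
Log2 fold change of the 10 genes in HIF1A-null cells, against control cells (red shades) and against WT cells (blue shades), in coculture, monoculture and 2D. Bars are standard errors and filled points passed an adjusted p of 0.05. The 6 CYBRD1 points lie between 1.63 and 2.18, ACO1 passes against WT cells in 2D at 0.46, and the other points are open.

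Some HIF genes fell in the same comparison. Against control cells, HIF1A-null cells had 3 of 13 tested genes of the HIF list lower in 2D, 2 in monoculture and 2 in coculture, and none higher, with list medians of -0.56, -0.55 and -0.88 on the log2 scale against -0.001, 0.005 and 0.01 over all genes. HIF1A itself is 1 of the 3 in 2D. Against WT cells, HIF1A-null cells had 6, 1 and 1 of the 13 lower in 2D, monoculture and coculture, and none higher. Between control and WT cells none passed, with list medians of -0.84 in 2D, 0.32 in monoculture and 0.325 in coculture, so the 2D median was further below 0 there than between HIF1A-null and control cells. PLOD2, a collagen lysyl hydroxylase, was lower in HIF1A-null than in control cells, with log2 fold changes of -2.23 in 2D, -2.29 in monoculture and -2.36 in coculture. Also against control cells, ANKRD37, a HIF1 target, fell in monoculture (-3.59) and coculture (-4.06). PDK1, which limits pyruvate entry into mitochondria, fell against them in 2D (-1.98). Against WT cells, BNIP3 was the gene of the list that passed in monoculture (-2.76) and coculture (-2.79), and it also passed in 2D (-3.18). EPAS1, the gene of the HIF2 chain, averaged 34.0 to 42.5 CPM in the HIF1A-null groups, 44.6 to 53.3 in the control groups and 39.8 to 42.3 in the WT groups, and passed no test. Of the 20 tested genes in the list of iron uptake, transfer and haem iron outside the members, none passed between HIF1A-null and control cells in any culture. Of 34 genes of iron-sulphur cluster and haem synthesis none passed there either.

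Control cells were set against WT cells to show what the Cas9 and vector line differs in. By edgeR no member passed in 2D, monoculture or coculture, where 1.28, 1.1 and 1.8% of all genes passed. By DESeq2 0, 0 and 1 member passed, IREB2 in coculture (-0.45, adjusted p = 0.0407). The share of all genes called by DESeq2 there is not given here. At an unadjusted p under 0.05 there were 3 members of 1426 genes in 2D, 4 of 1793 in monoculture and 3 of 2028 in coculture. IREB2 had 149.6, 122 and 132 CPM in control coculture, against 159, 185 and 211 CPM in WT coculture, with no overlap (-0.46 ± 0.14, edgeR adjusted p = 0.0911). FTH1 had 329, 366 and 300.4 CPM in control monoculture, against 385, 535 and 478 CPM in WT monoculture (-0.48 ± 0.14, adjusted p = 0.106). SLC11A2 in 2D gave -0.65 ± 0.22 (adjusted p = 0.19), and -0.32 without WT 2D replicate 5, which stood at 421 CPM (adjusted p = 0.627).

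Monoculture was set against 2D in each line to ask what the HoxBan tube does without bacteria. IREB2 fell in monoculture and the ferritin genes rose, in the mean of the 3 lines. The mean of 3 lines called 5 of 10 members, FTH1 and FTL higher and IREB2, SLC11A2 and CYBRD1 lower, which is close to the 44.6% of all genes that passed. Line by line, IREB2 passed in HIF1A-null cells (20.1% of all genes passed) and in control cells (21.6%), and FTH1 and SLC11A2 in WT cells (14.8%).

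IREB2 had 208, 211 and 179.9 CPM in monoculture of HIF1A-null cells, against 306, 286 and 280.4 CPM in 2D. It had 180.1, 166 and 156 CPM in monoculture of control cells, against 215, 237 and 249.5 CPM in 2D, and 253, 229 and 209 CPM in monoculture of WT cells, against 302, 297, 326 and 246 CPM in 2D. The groups did not overlap in HIF1A-null and control cells, and 1 WT monoculture library stood above the lowest WT library in 2D. The log2 fold change was -0.50 ± 0.14 in HIF1A-null cells (SE, edgeR adjusted p = 0.0115), -0.45 ± 0.14 in control cells (adjusted p = 0.0212), -0.36 ± 0.13 in WT cells (adjusted p = 0.066) and -0.44 ± 0.08 in the mean of 3 lines (adjusted p = 6.28e-05). With the mitochondrial share as a covariate the mean of 3 lines gave -0.46 (adjusted p = 2.72e-05). The call in HIF1A-null cells was lost without HIF1A-null monoculture replicate 24 (adjusted p = 0.064) and that in control cells without control monoculture replicates 15 or 25 or control 2D replicates 26 or 32 (adjusted p 0.0555 to 0.0756).

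FTH1, the ferritin heavy chain with the ferroxidase site, had 385, 535 and 478 CPM in WT monoculture, against 297, 323, 285 and 361 CPM in WT 2D, with no overlap. Its log2 fold change was 0.55 ± 0.13 in WT cells (edgeR adjusted p = 0.00592), 0.31 ± 0.14 in HIF1A-null cells (adjusted p = 0.137), 0.15 ± 0.14 in control cells (adjusted p = 0.496) and 0.34 ± 0.08 in the mean of 3 lines (adjusted p = 0.00143). Without WT monoculture replicate 19, the WT value was 0.43 (adjusted p = 0.0598). FTL, the light chain, averaged 1545 ± 208 CPM in monoculture and 1357 ± 148 CPM in 2D in HIF1A-null cells. It averaged 1632 ± 63.0 CPM in monoculture and 1293 ± 230.1 CPM in 2D in control cells, and 1619 ± 39.3 CPM in monoculture and 1232 ± 118 CPM in 2D in WT cells (SD, n = 3, or 4 for WT in 2D). It passed in the mean of 3 lines (0.33 ± 0.11, adjusted p = 0.0138) and in no single line (adjusted p 0.144 to 0.443).

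SLC11A2, the iron importer DMT1, had 159.7, 207 and 134 CPM in WT monoculture, against 421, 174, 263 and 205 CPM in WT 2D. The WT 2D library at 421 CPM, replicate 5, stood far above the others and the groups overlapped. The log2 fold change in WT cells was -0.69 ± 0.22 (edgeR adjusted p = 0.0336) and -0.37 without that library (adjusted p = 0.22), and the call was also lost without WT 2D replicate 12 or WT monoculture replicates 16 or 29 (adjusted p 0.0577 to 0.156). In the mean of 3 lines it was -0.37 ± 0.13 (adjusted p = 0.0229), lost without WT monoculture replicate 29 (-0.32, adjusted p = 0.0555). CYBRD1 in the mean of 3 lines gave -0.53 ± 0.19 (adjusted p = 0.0223), lost without control monoculture replicate 25 (adjusted p = 0.0517) or control 2D replicate 32 (adjusted p = 0.0744) and with the mitochondrial share as a covariate (-0.41, adjusted p = 0.0627) or without the filter on low counts (-0.55, adjusted p = 0.074).

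The other 5 members did not pass in the mean of 3 lines. TFRC gave 0.16 ± 0.10 (adjusted p = 0.203), SLC40A1 -0.20 ± 0.09 (0.0825), NCOA4 0.16 ± 0.10 (0.2), HEPH -0.14 ± 0.17 (0.532) and ACO1 -0.05 ± 0.07 (0.575, edgeR adjusted p in each case). SLC40A1 passed without HIF1A-null 2D replicate 1 (adjusted p = 0.0436) or WT 2D replicate 12 (adjusted p = 0.045). NCOA4 averaged 180.2 ± 40.6 CPM in monoculture and 140.4 ± 9.80 CPM in 2D in HIF1A-null cells, and 155 ± 27.0 CPM in monoculture and 173 ± 19.3 CPM in 2D in WT cells. None of these changes was shown to differ between lines: tests of the difference called 0 members and 0 genes for each pair of lines, with 180 genes (HIF1A-null minus control), 531 (HIF1A-null minus WT) and 439 (control minus WT) at an unadjusted p under 0.05, and DESeq2 called 0, 0 and 3 genes and 0 members.

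**Figure D2:**
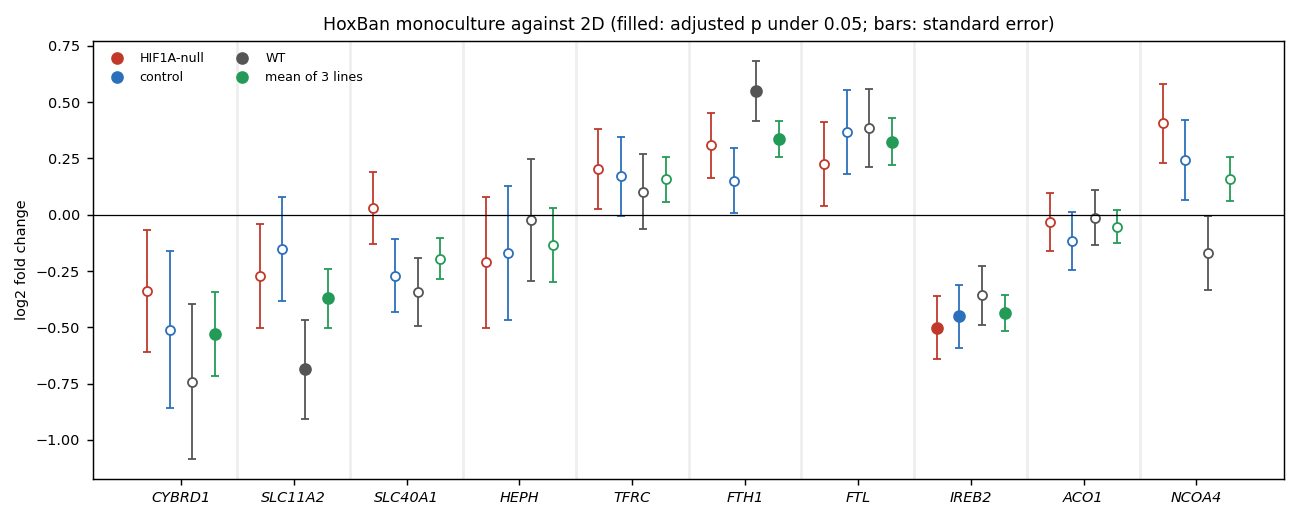
Log2 fold change of the 10 genes in HoxBan monoculture against 2D, in HIF1A-null, control and WT cells and in the mean of the 3 lines. Bars are standard errors and filled points passed an adjusted p of 0.05. IREB2 lies between -0.50 and -0.36 in every line, and FTH1 and FTL lie above 0 in every line.

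The genes around the members changed in both directions, in a comparison that called 44.6% of all genes. In the mean of 3 lines, 5 of 20 tested genes of iron uptake, transfer and haem iron rose and 6 fell, with PCBP2, an iron chaperone, up by 0.38 and HFE, a partner of the transferrin receptor, at -0.78. Of 25 genes that control iron proteins and ferritin turnover, 7 rose and 9 fell. Among them SKP1 rose by 0.50 and CUL1 fell by 0.88 on the log2 scale, both parts of ubiquitin ligases such as the one that marks IRP2 for breakdown, and SMAD6, an inhibitor of BMP signalling, fell by 0.99. Of 34 genes of iron-sulphur cluster and haem synthesis 6 rose and 2 fell, with GLRX5, which passes on iron-sulphur clusters in mitochondria, up by 0.65 and FDX1, a mitochondrial ferredoxin, up by 0.47. Of 4 tested genes outside the members whose transcripts are known to carry an iron-responsive element, CDC42BPA, a kinase, fell by 0.34. The medians of the 3 longer lists were -0.02, 0.03 and 0.07, against -0.008 over all genes.

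Of 12 genes of ferroptosis and lipid peroxides, 7 rose in monoculture and none fell in the mean of 3 lines, where 44.6% of all genes passed, with a median of 0.54. Line by line, 5 rose in HIF1A-null, 5 in control and 1 in WT cells, where 20.1, 21.6 and 14.8% of all genes passed. SLC3A2, a chain of the cystine importer, rose by 0.94, PTGS2, a prostaglandin synthase, by 1.98, CHAC1, which breaks down glutathione, by 1.20 and TXNRD1, a thioredoxin reductase, by 0.67. Of 13 HIF genes, 6 rose and none fell, where 44.6% of all genes passed in either direction. The median of the HIF genes was 0.49, against -0.008 over all genes. CITED2 rose by 2.36, ADM by 1.56 and HIF1A by 0.68. In WT cells alone 2 rose and the median was 0.003. The mitochondrial share also moved with culture, and its part in these changes was not tested.

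Coculture was set against monoculture to ask what F. prausnitzii does. No member passed in any line, and no gene at all did (0.0% called in each line by edgeR). At an unadjusted p under 0.05 there were 0 members of 908 genes in HIF1A-null cells, 3 of 791 in control cells and 2 of 555 in WT cells, and DESeq2 called 4, 0 and 0 genes and no member. In the mean of 3 lines 1.99% of all genes passed by edgeR but no member, with 5 members of 2374 genes at an unadjusted p under 0.05. By DESeq2 1 member passed, IREB2 (-0.27, adjusted p = 0.0269), and the share of all genes it called there is not given here.

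IREB2 had 187, 151 and 206 CPM in coculture of HIF1A-null cells, against 208, 211 and 179.9 CPM in monoculture. It had 149.6, 122 and 132 CPM in coculture of control cells, against 180.1, 166 and 156 CPM in monoculture, and 159, 185 and 211 CPM in coculture of WT cells, against 253, 229 and 209 CPM in monoculture. Only the control groups did not overlap. The mean of 3 lines gave -0.27 ± 0.08 (SE, edgeR adjusted p = 0.0761), and without control coculture replicate 14 or WT coculture replicate 28 it passed (-0.30, adjusted p = 0.0313 and 0.033). FTH1 had 389, 482 and 478 CPM in control coculture, against 329, 366 and 300.4 CPM in control monoculture, with no overlap (0.43 ± 0.14, adjusted p = 0.691), and gave 0.23 ± 0.08 in the mean of 3 lines (adjusted p = 0.115). CYBRD1 gave 0.51 ± 0.20 (adjusted p = 0.152), and the remaining members -0.01 to 0.22 (adjusted p 0.192 to 0.974).

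With the mitochondrial share as a covariate, 5 members passed in the mean of 3 lines, among 1414 genes: IREB2 (-0.29, adjusted p = 0.0233), FTH1 (0.26, 0.034), FTL (0.27, 0.0387), CYBRD1 (0.60, 0.0413) and SLC40A1 (0.26, 0.0466). The share averaged 15.0 to 16.3% in coculture groups and 11.1 to 15.2% in monoculture groups. The test of whether the coculture change differed between HIF1A-null and control cells called 0 members and 0 genes, with 169 genes at an unadjusted p under 0.05 and 0 by DESeq2. Of the genes around the members, STEAP1, of a family of metalloreductases, rose in the mean of 3 lines by 0.40. BMP2, a signal that induces hepcidin in liver, fell by 0.63 and CHAC1 fell by 0.79.

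**Figure D3:**
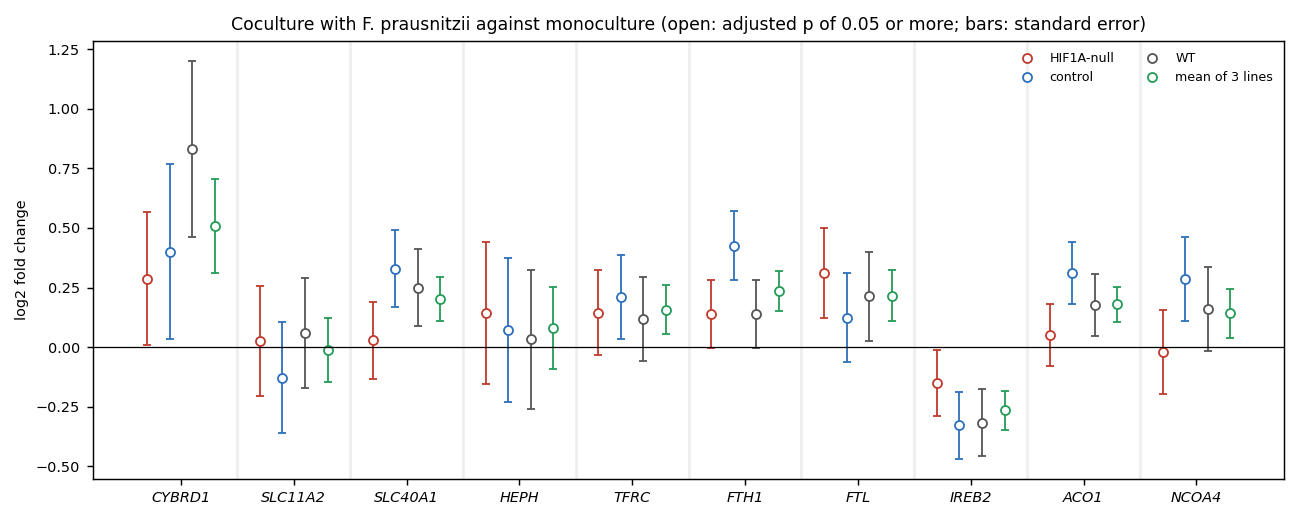
Log2 fold change of the 10 genes in coculture with F. prausnitzii against monoculture, in HIF1A-null, control and WT cells and in the mean of the 3 lines. Bars are standard errors, and every point is open because no adjusted p was under 0.05. The mean of 3 lines lies at -0.27 for IREB2, at 0.51 for CYBRD1 and between -0.01 and 0.23 for the others.

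The 4 single WT libraries came from HoxBan with inulin or mucin, alone or with stool bacteria. They have no replicate and were not tested. SLC40A1, the iron exporter, had 237 CPM with stool and inulin, 186 with stool and mucin, 201 with inulin and 206 CPM with mucin, against 135 to 182 CPM in the 6 WT coculture and monoculture libraries. NCOA4, the ferritin receptor, had 269.8, 253, 251 and 215 CPM in the same order, against 126 to 186 CPM. All 4 libraries were thus above the whole WT HoxBan range for both genes, though for SLC40A1 the WT 2D libraries reached 228 CPM. For NCOA4, the control coculture libraries, without inulin, mucin or stool, stood at 212 to 268 CPM. HEPH had 33.7, 29.4, 33.1 and 29.0 CPM in that order, against 33.3 to 66.0 CPM, and was below the range in 3 of the 4. Of the other members, the values outside that range were ACO1 with stool and inulin (62.6 CPM, against 44.6 to 57.3 CPM) and CYBRD1 with stool and mucin (1.19 CPM, against 1.39 to 4.45 CPM). How many of all genes lie outside the WT HoxBan range in these libraries is not given here. These values are therefore not shown to be particular to the members. The mitochondrial share was 7.29 to 9.04% in these libraries.

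**Figure D4:**
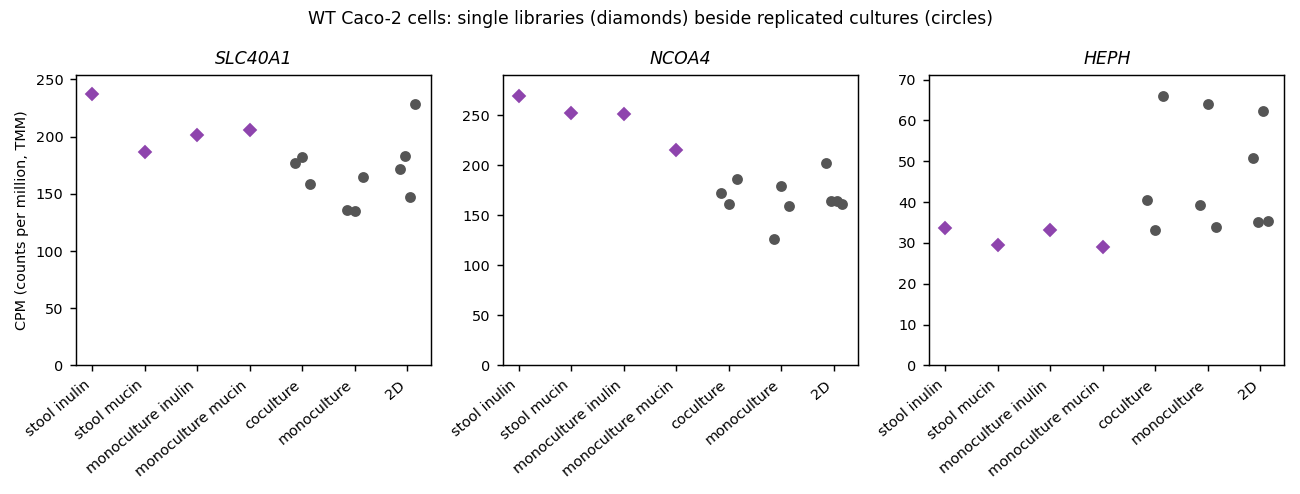
SLC40A1, NCOA4 and HEPH in WT cells, in CPM on a linear axis from 0. Diamonds are the single libraries with stool, inulin or mucin and circles the replicated coculture, monoculture and 2D libraries. SLC40A1 lies at 186 to 237 CPM and NCOA4 at 215 to 269.8 CPM in the single libraries.

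The genes whose pattern over the 28 libraries was most like that of a member were sought among 8327 genes with a mean of at least 10 CPM, by Pearson correlation of log2(CPM + 0.5), for IREB2 and SLC11A2, the members with the widest range of group means at that level. For IREB2 these were DUSP16 (r = 0.938), THRB (0.933), FOXD2 (0.931), TNRC6C (0.929) and PYGO1 (0.928). For SLC11A2 they were SCD (0.824), HNF4A (0.796), YEATS2 (0.79), ELF1 (0.788) and TET1 (0.784). Between the members themselves, IREB2 and SLC11A2 gave 0.701, and IREB2 gave -0.649 with FTL, -0.532 with FTH1 and -0.662 with NCOA4. The libraries share lines and cultures, so these values describe a pattern across groups.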

How the data were processed

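The authors made QuantSeq 3′ reads into counts per Ensembl gene on GRCh38, and deposited them for 32 libraries. Aligner, counter, strand setting and annotation: not given in the sources used here. Genes on opposite strands could therefore share reads. Rows without a name held 0.0679% of counts and were left out. After TMM scaling, edgeR's quasi-likelihood test (two-sided) was run in 1 fit of 28 libraries in 9 groups. It held 12849 genes that passed filterByExpr, with 19 residual degrees of freedom and a biological coefficient of variation of 0.201. P-values were adjusted by Benjamini-Hochberg over all genes tested, with a threshold of 0.05. The SE of a log2 fold change came from the F statistic. CPM used TMM factors over 32 libraries. The mean of 3 lines weights the lines equally. Reads carry no molecular identifiers.

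The members and gene lists were chosen with earlier results of these data known. All 10 members were named in every comparison, and from each other list up to 4 called genes averaging at least 5 CPM, by smallest adjusted p. The lists covered iron uptake, transfer and haem iron, control of iron proteins and ferritin turnover, iron-sulphur cluster and haem synthesis, other transcripts with an iron-responsive element, ferroptosis, HIF genes, and markers of cell types, some of which are not reported here.

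Alternatives were DESeq2, no filter, upper-quartile factors, only the groups compared, the mitochondrial share as a covariate, the 12 control and HIF1A-null HoxBan libraries, no TMM factors, pseudogene counts added, and each library left out. The steps were tested on simulated counts. Promoter windows came from RefSeq (GRCh38.p14), with none for FTH1, and transcripts from GENCODE release 29. Software was R 4.3.3, edgeR 4.0.16, DESeq2 1.42.0, Python 3.11.15 and pandas 2.3.3.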

Additional observations from a re-analysis of the deposited data

Results flagged for a closer look

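NCOA4, the ferritin receptor, had 201.9 CPM in WT 2D replicate 5, far from the other 3 WT 2D libraries at 161 to 165 CPM. The gap to the nearest library took 0.920 of the group's range, above Dixon's 95% critical value for 4 libraries. Only the WT 2D group has 4 libraries, so 10 values were examined, 1 for each member, and chance marks about 1 in 20. The same library held the highest SLC11A2 value (421 CPM), and its mitochondrial share was 4.94%.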

How the results depend on the processing

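Of the fold changes of members that passed, 228 alternatives kept direction and call, 31 lost the call and none changed sign. The number of members called moved as follows. Monoculture against 2D called 0 in HIF1A-null cells and 0 in control cells without the filter (1 each as reported). With the mitochondrial share as a covariate it called 2 in control and 4 in WT cells (2 as reported), and with only the groups compared 0 in control and 1 in WT cells. With libraries left out in turn it called 0 to 2 in HIF1A-null, 0 to 1 in control and 1 to 3 in WT cells. In the mean of 3 lines, the calls of CYBRD1, SLC11A2 and SLC40A1 also changed in settings named above. Coculture against monoculture in the mean of 3 lines called 5 with that covariate, 1 by DESeq2 and 0 to 1 with libraries left out (0 as reported). HIF1A-null against control cells in monoculture called 0 with only the groups compared and 2 by DESeq2, the other being ACO1 (0.47, adjusted p = 0.0201). Control against WT cells called 1 in 2D without the filter, SLC11A2, and 1 in coculture by DESeq2. HIF1A-null against WT cells in 2D called 1 without the filter, 1 with only the groups compared and 1 with each library left out in turn. In monoculture it called 2 with the covariate, 2 by DESeq2 and 1 to 2 with libraries left out, ACO1 being added, and in coculture 0 with only the groups compared and 0 to 1 with libraries left out. The cause of these changes was not tested. The share of all genes called under each alternative is not given here, so a change in these counts is not shown to be particular to the members. No paired analysis was possible because each library number occurs once and no label pairs libraries across groups. CYBRD1 rests on 6 to 24 reads per control or WT library, which limits its fold change.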

Other observations

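Genes near CYBRD1 were examined after its values were seen. Within 1 Mb of it, 20 other genes were tested. Between HIF1A-null and control cells their median log2 fold change was -0.19 in 2D, -0.17 in monoculture and -0.08 in coculture, and 1, 0 and 0 of them passed, PDK1 in 2D, a HIF1 target, which fell by 1.98. Against WT cells the medians were 0.04, -0.04 and -0.04, and those that passed were PDK1 in 2D (-2.83) and DLX1, a homeobox gene, in monoculture (1.78, edgeR adjusted p = 0.04995).

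Some genes around the members differed between lines. CHAC1, which breaks down glutathione, averaged 10.2 CPM in HIF1A-null cells and 3.55 CPM in control cells in 2D (edgeR adjusted p = 0.019). It also passed in HIF1A-null against WT cells in monoculture (1.64) and coculture (1.46), and in control against WT cells in coculture, at 11.3 and 3.78 CPM (1.56). CUL1, a scaffold of ubiquitin ligases, averaged 29.3 CPM in control and 59.5 CPM in WT cells in monoculture (edgeR adjusted p = 0.019), 34.2 and 63.9 CPM in coculture (-0.90), and was also lower in HIF1A-null than in WT cells in monoculture (-0.78, adjusted p = 0.046). NUBPL, which helps to place iron-sulphur clusters in complex I, was lower in monoculture in HIF1A-null cells (20.5 CPM) and in control cells (19.7 CPM) than in WT cells (31.4 CPM). In coculture, PTGS2 averaged 61.6 CPM in control and 17.4 CPM in WT cells, and ACSL4, a fatty acid ligase, 114 and 69.7 CPM.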
